A study of Mus musculus with 6 samples.

Results

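The genes of oxidative phosphorylation were examined in RNA sequencing of lung microvascular endothelial cells (LMVEC). Members were chosen by gene type and name alone, as protein-coding genes named for subunits of complexes I to V of the respiratory chain, together with every protein-coding gene of the mitochondrial genome. Of the 21999 genes counted, 96 met this rule, 83 encoded in the nucleus and 13 in the mitochondrial genome. The groups by complex follow the gene names, so Ndufa4, whose product is now placed in complex IV, is counted with complex I.

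Oxidative phosphorylation takes place in the inner mitochondrial membrane. Complexes I and II take electrons from NADH and succinate, complexes III and IV pass them on to oxygen, complexes I, III and IV pump protons on the way, and complex V, the ATP synthase, uses the proton gradient to make ATP. Except for complex II, each complex is built from subunits of both genomes, and the mitochondrial mRNAs are cut from long transcripts that cover almost the whole circular genome. Endothelial cells are known to draw much of their ATP from glycolysis.

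The RNA came from 3 separate isolations of untreated LMVEC from Ptprz1+/+ mice, called wild-type below, and 3 from Ptprz1-/- mice, all of the SV129/B6 strain. Lungs of 2 to 5 mice aged 3 to 8 weeks were pooled for an isolation, and the cells were grown to confluence before selection on magnetic beads carrying an antibody to CD31, the endothelial surface protein encoded by Pecam1. Ptprz1 itself had 197, 1837 and 508 reads in the wild-type libraries and 1138, 1320 and 895 in those labelled Ptprz1-/-, so its count did not separate the genotypes and every direction below rests on the labels. Counts per gene do not show which of its exons were read.

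The total count per library was between 14496881 and 17709663 reads. All 12 endothelial markers examined had reads in every library, but their summed level ran from 30.1 to 559 CPM (reads scaled to the size of the library) in the wild-type libraries and from 17.4 to 183 CPM in those labelled Ptprz1-/-, with replicate 3 highest in both. Pecam1, the gene of the selection, had 63, 80 and 1443 reads in wild-type replicates 1, 2 and 3, and 22, 22 and 491 in those labelled Ptprz1-/-. Endothelial reads were thus few outside replicate 3, and the name LMVEC rests on the sample titles. All 10 fibroblast markers also had reads in every library, with a summed level of 17526 to 25608 CPM and 10751 to 27210 CPM in the same order. Among them, Col1a1 had 94502, 87440 and 94966 reads against 61127, 36333 and 81408. Smooth muscle and pericyte markers summed to 853 to 4416 CPM in the wild-type libraries and 1547 to 4593 CPM in the others. Mesothelial markers summed to 55.8 to 217 CPM and 115 to 1381 CPM. In such mixed RNA, fewer cells of a type and less RNA per cell cannot be told apart.

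Of the 96 members, 93 passed edgeR's filter on low counts, 81 nuclear and 12 mitochondrial. The 3 that did not were Cox8b, with 1 to 4 reads per library, Cox7b2, with reads only in 1 library labelled Ptprz1-/-, and mt-Atp8, with 0 to 2 reads. A count of 0 allows up to 3 reads, or 0.165 to 0.206 CPM at these depths, and covers counting error only. With edgeR's quasi-likelihood test, 0 of the 13609 genes tested had an adjusted p-value under 0.05 (0.0% of genes), and so did 0 members. At an unadjusted p-value under 0.05 there were 366 genes (2.69%) and 3 members, namely mt-Nd3, Ndufs8 and Ndufa6. DESeq2's Wald test called 30 genes (0.22%), among them 1 member, mt-Nd3.

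The mitochondrial members were read at widely different levels. The deposited FPKM, which is per gene length, averaged 2510 over the 6 libraries for mt-Co1, the catalytic subunit of complex IV that binds oxygen. It averaged 1211 for mt-Nd1, 960 for mt-Cytb, 831 for mt-Nd6, 649 for mt-Nd5, 495 for mt-Nd2 and 331 for mt-Nd4, of which mt-Cytb encodes cytochrome b of complex III and the others subunits of complex I. By contrast, it averaged 34.3 for mt-Co2 and 29.3 for mt-Co3, the other core subunits of complex IV, 24.8 for mt-Atp6, a proton channel subunit of complex V, 12.0 for mt-Nd3 and 5.27 for mt-Nd4l.

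These levels lay along a property of the sequences that the choice of members did not use. Each transcript of GENCODE M21 was divided into all its overlapping stretches of 50 bases, and a stretch was counted as shared if it also occurs exactly in a transcript of another gene. The 5 mitochondrial members with more than 95% of stretches shared, mt-Co2, mt-Co3, mt-Atp6, mt-Nd3 and mt-Nd4l, had a mean FPKM between 5.27 and 34.3. The 5 with less than 10% shared that passed the filter, mt-Nd1, mt-Nd2, mt-Nd5, mt-Nd6 and mt-Cytb, had a mean FPKM between 495 and 1211. Between them in sharing stood mt-Co1 with 51.1% and mt-Nd4 with 62.2%. The remaining gene, mt-Atp8, shares 0% of its stretches with an annotated transcript and had an FPKM of at most 0.676. Whether it matches the bases between the copies of its neighbours mt-Co2 and mt-Atp6, described next, was not analysed here.

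**Figure D1:**
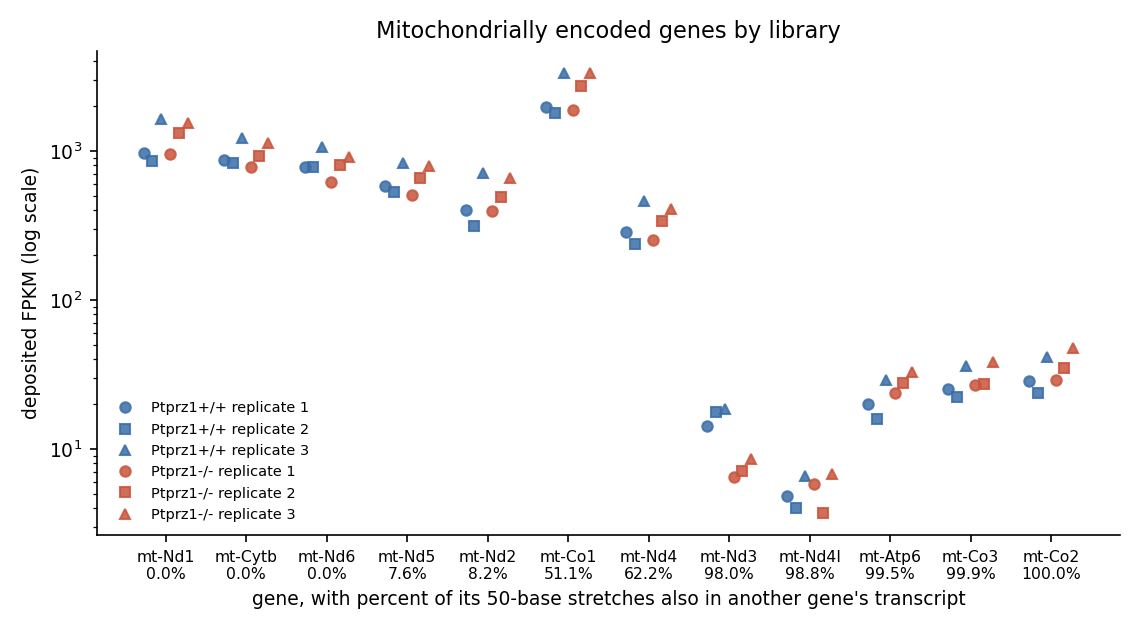
Deposited FPKM (log axis) of the 12 mitochondrially encoded genes tested, 1 symbol per library, ordered by the percent of 50-base stretches also found in another gene's transcript. The 5 genes over 95% have mean levels between 5.27 and 34.3, the 5 under 10% between 495 and 1211, and for mt-Nd3 the libraries of the 2 genotypes stand apart.

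The main partner of each of these 5 genes, and of mt-Co1 and mt-Nd4, was 1 of 7 unprocessed pseudogenes lying side by side on the minus strand of chromosome 1 of GRCm38, from 24611535 to 24616197, in the order of the mitochondrial genome. Further partners of mt-Co1, mt-Co2 and mt-Nd2 lie on chromosome 2. Aligned base by base over the length of the copy, the copies of mt-Atp6, mt-Co2, mt-Co3, mt-Nd4 and mt-Nd4l were identical to the gene, and that of mt-Nd3 differed by 1 substitution. That of mt-Co1, which covers 492 of 1545 bases from base 1054 on, differed at 6 positions. All 6 lay near the start of the copy, from T1056A to A1066T (mitochondrial base, position in the gene, base of the copy). The alignment allowed no gaps, so these 6 may mark the end of the match and not single substitutions. How reads that match both places were assigned is not given in the sources used here, so the levels of these genes are uncertain. Among the nuclear members, 23 of 83 shared at least 10% of their stretches, many of them with processed pseudogenes, and 37 shared none. The most shared of them was Atp5l, a membrane subunit of complex V, with 84.8% of its stretches shared and a mean FPKM of 163.

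The start of mt-Nd3 and that of its copy are shown because this gene differed most between the genotypes and its copy differs from it by a single base. The sequences are read on the coding strand from the first base of the gene, from chrM:9459-9518 on the plus strand and chr1:24613060-24613119 on the minus strand of GRCm38. The capital marks the substitution T3C, counted from 1 at the first base of the gene, with the mitochondrial base first.
mt-Nd3: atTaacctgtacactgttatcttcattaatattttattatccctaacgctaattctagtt
Gm28438: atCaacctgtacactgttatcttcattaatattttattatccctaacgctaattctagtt

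mt-Nd3 (ENSMUSG00000064360), a core membrane subunit of complex I, had 83, 109 and 105 reads in wild-type replicates 1, 2 and 3, but 35, 38 and 43 in the libraries labelled Ptprz1-/-. All 3 of the latter lay below all 3 of the former, on a level of 5.88 ± 0.812 CPM (SD, n = 3) against 2.54 ± 0.340 CPM (SD, n = 3). The log2 fold change was -1.21 (standard error, SE, 0.26, unadjusted p = 0.00268 and Benjamini-Hochberg adjusted p = 1.00, both by the quasi-likelihood test of edgeR). With DESeq2's Wald test the adjusted p was 0.041. Leaving out 1 library at a time gave values between -1.31 and -1.10, and edgeR's adjusted p was never under 0.803.

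The copy of mt-Nd3 on chromosome 1, Gm28438 (ENSMUSG00000101939, chr1:24612775-24613119), had 45, 43 and 61 reads in the wild-type libraries and 68, 69 and 106 in those labelled Ptprz1-/-. For the copy, then, the libraries labelled Ptprz1-/- lay above the others, with a log2 fold change of 0.84 (SE 0.33, unadjusted p = 0.0413, edgeR quasi-likelihood adjusted p = 1.00). Gene and copy together had 128, 152 and 166 reads against 103, 107 and 149, which overlapped between the genotypes. On CPM the sum was 8.85 ± 1.44 (SD, n = 3) in the wild-type libraries and 7.86 ± 1.78 (SD, n = 3) in the others (exact two-sided permutation test, p = 0.50). The copy was examined after the values of mt-Nd3 had been seen.

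Of the reads on mt-Nd3 and its copy, those given to the mitochondrial gene made up 64.8%, 71.7% and 63.3% in the wild-type libraries and 34.0%, 35.5% and 28.9% in those labelled Ptprz1-/-. The 2 groups did not overlap (exact permutation test, two-sided, p = 0.10, the smallest that 3 libraries against 3 allow, and 0.70 after Benjamini-Hochberg adjustment over the 7 gene and copy pairs). The same share overlapped between the genotypes in the other 6 pairs. For mt-Co2, for example, it was 46.9 ± 1.21% (SD, n = 3) against 46.2 ± 1.90% (SD, n = 3), and for mt-Co3 50.7 ± 1.39% against 49.6 ± 1.25% (SD, n = 3 each).

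**Figure D2:**
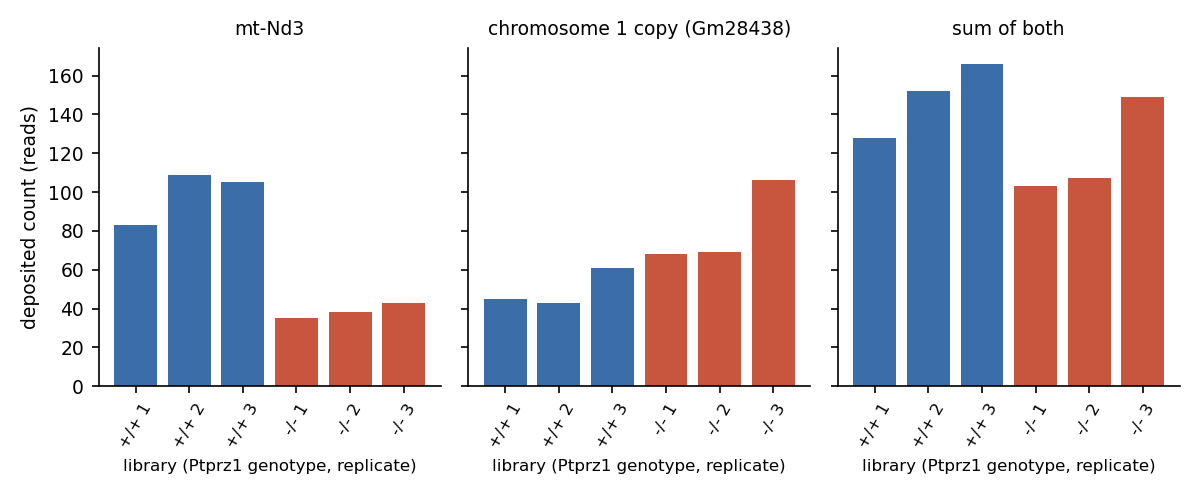
Deposited read counts of mt-Nd3 (left), of its copy on chromosome 1 (middle) and of their sum (right), 1 bar per library, Ptprz1+/+ in blue and Ptprz1-/- in red. The libraries labelled Ptprz1-/- have 35 to 43 reads on the gene against 83 to 109, 68 to 106 on the copy against 43 to 61, and sums that overlap with the others.

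The other 11 mitochondrial members tested overlapped between the genotypes. Their log2 fold changes ran from -0.19 for mt-Nd6 (SE 0.23) to 0.34 for mt-Atp6 (SE 0.28), with adjusted p = 1.00 for each by edgeR. Single libraries moved both ends of this range: mt-Nd6 was at -0.29 without wild-type replicate 2 and at -0.0066 without wild-type replicate 3, and mt-Atp6 at 0.13 and 0.63 without the same libraries. mt-Nd6 is the only member transcribed from the other strand of the mitochondrial genome, and since the use of strand in counting is not given in the sources used here, its reads cannot be told from those of transcripts that cover it in antisense. Over all 12 genes the median log2 fold change was 0.06, beside -0.00466 over all genes tested. Without wild-type replicate 2 this median was -0.15 and without wild-type replicate 3 it was 0.36, so its sign rested on single libraries.

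For the 13 mitochondrial genes as counted, the spread within a genotype was larger than the difference between the genotypes. Its 13 genes took 0.731%, 0.664% and 1.17% of all counts in wild-type replicates 1, 2 and 3, compared with 0.677%, 0.917% and 1.12% in the libraries labelled Ptprz1-/-. The means were 0.854 ± 0.273% (SD, n = 3) and 0.904 ± 0.222% (SD, n = 3). mt-Co1 alone made up between 41.5% and 46.1% of these reads in each library. The 5 genes with more than 95% of stretches shared made up only 0.728% to 0.899% of them. How their reads were assigned is not given, so the size of all these shares is uncertain.

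In CPM, replicate 3 was the highest library of both genotypes in 12 of the 12 mitochondrial members tested, and in 1924 of the 13609 genes tested (14.1%). Replicate 3 was also the highest of both genotypes in the summed endothelial markers, at 559 CPM against 30.1 and 37.9 CPM in the wild-type libraries, and at 183 CPM against 27.8 and 17.4 CPM in the others. It was also the highest of both in the summed fibroblast markers, at 25608 CPM against 17852 and 17526 CPM, and at 27210 CPM against 12798 and 10751 CPM. By contrast, smooth muscle and pericyte markers were highest in replicate 1 of both genotypes, at 4416 and 4593 CPM. Mesothelial markers were too, at 217 and 1381 CPM. The part of any of these lists in the mitochondrial levels was not tested. The library labelled Ptprz1-/- replicate 2 had the lowest sum of endothelial and of fibroblast markers among the 6. Its mitochondrial share was 0.917%, the third highest.

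The nuclear members took 0.691%, 0.860% and 0.674% of all counts in the wild-type libraries and 0.810%, 0.705% and 0.739% in those labelled Ptprz1-/-. The means were 0.742 ± 0.103% (SD, n = 3) and 0.751 ± 0.0532% (SD, n = 3), and the groups overlapped. Here the order of libraries was another: wild-type replicate 2 was the highest of its genotype in 56 of 81 nuclear members (69.1%, beside 37.6% of all genes tested) and the library labelled Ptprz1-/- replicate 1 in 52 (64.2%, beside 38.0%). These same libraries were the lowest of their genotype in 11 of the 12 mitochondrial members each. The ratio of mitochondrial to nuclear counts was therefore between 0.772 in wild-type replicate 2 and 1.73 in wild-type replicate 3, and was 0.836, 1.30 and 1.51 in the libraries labelled Ptprz1-/-. The size of this ratio is as uncertain as the mitochondrial counts.

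Within each genotype, but not across the 6 libraries, markers of proliferating cells stood in the same order as the nuclear share. Summed over 8 genes, they were at 156, 762 and 84.3 CPM in the wild-type libraries and at 194, 79.3 and 103 CPM in those labelled Ptprz1-/-, so that the library with the highest sum in each genotype was also the one with the highest nuclear share. Across genotypes, wild-type replicate 1 had 156 CPM with a nuclear share of 0.691%, while Ptprz1-/- replicate 2 had 79.3 CPM with 0.705%. All 8 markers had reads in every library. Smooth muscle, mesothelial, epithelial, leukocyte, striated muscle and adipocyte markers were summed as well. Of all the lists summed, only the proliferation markers followed the order of the nuclear share in both genotypes. The part of the proliferation markers in the nuclear levels was not tested.

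**Figure D3:**
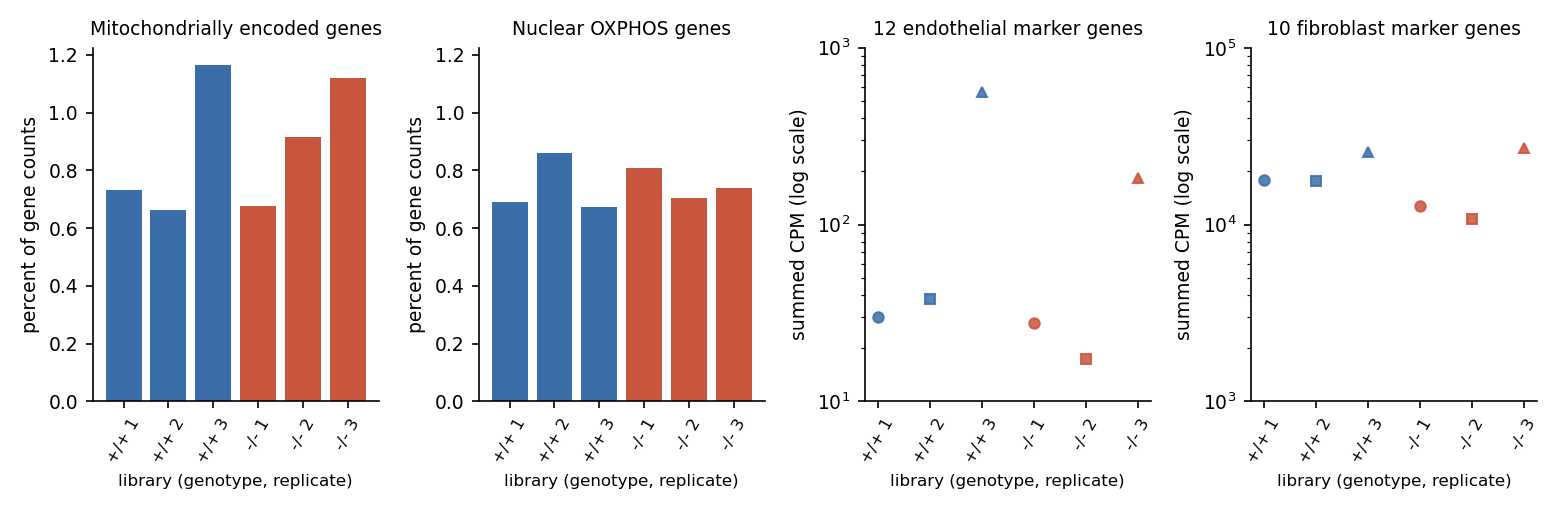
Percent of all gene counts on the 13 mitochondrially encoded genes and on the 83 nuclear members (both left panels), and the summed CPM of 12 endothelial and of 10 fibroblast markers (both right panels, log axes), for each library. The mitochondrial share runs from 0.664% to 1.17% and is highest in replicate 3 of each genotype, as are the endothelial and the fibroblast markers, while the nuclear share runs from 0.674% to 0.860%.

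The nuclear members varied little among libraries. The standard deviation of log2 CPM over the 6 libraries had a median of 0.16 over the 81 nuclear members tested, 0.39 over the mitochondrial members and 0.29 over all genes, of which 19.7% had a smaller value than the nuclear median. The nuclear members were also read at higher levels, with a median FPKM of 64.8 over all 83 beside 7.55 over the genes tested. Of the 93 members tested, 89 had an absolute log2 fold change under 0.5 (95.7%, beside 83.9% of all genes). The median log2 fold change of the nuclear members was 0.00741, and it was between -0.05 without wild-type replicate 3 and 0.09 without wild-type replicate 2.

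A part of the promoters of the nuclear members holds letters that the choice by name did not use. Windows from 250 bases before to 50 after the start (RefSeq, GRCm38.p6) were found for 66 of the 83, 71 windows in all, beside 32851 windows of all genes, and searched on both strands. The motif of nuclear respiratory factor 1 (NRF1), GCGCA and GCGC with any base between them, was in 25.4% of the members' windows and 4.60% of all windows. CCGGAAG, bound by GABPA, an activator of many respiratory genes, was in 22.5% and 8.86%, and ATGGCGGC, bound by YY1, in 9.86% and 2.24%. CCAAT, the box bound by NF-Y, was in 42.3% and 37.4%. None of these 4 motifs lies within another, but neighbouring matches can share letters at their ends. The windows of members also held more G and C, with a median of 57.3% beside 52.7%, and the windows compared were not matched for this.

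A pair of promoters, each printed for the 250 bases before the start on the strand of the gene, gives an example with and an example without the NRF1 and GABPA letters among genes of complex IV. Cox6a1, the nuclear member with the highest mean FPKM, encodes the common form of a small subunit and Cox7a1 the heart and muscle form of another. The capitals mark matches of the NRF1 and GABPA letters on either strand, which are present in the window of Cox6a1 (chr5:115348959-115349208, minus strand) and not in that of Cox7a1 (chr7:30183921-30184170, plus strand). They are also in neither the window of Cox7a2, the common form paired with Cox7a1, nor those of Cox5a, Cox5b, Cox7b and Cox7c. A match is a match of letters and not a measured site.
Cox6a1 promoter: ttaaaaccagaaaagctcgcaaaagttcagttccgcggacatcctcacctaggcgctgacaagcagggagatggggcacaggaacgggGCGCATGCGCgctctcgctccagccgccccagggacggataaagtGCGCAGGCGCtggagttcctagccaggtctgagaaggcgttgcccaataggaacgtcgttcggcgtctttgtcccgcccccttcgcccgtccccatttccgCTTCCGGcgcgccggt
Cox7a1 promoter: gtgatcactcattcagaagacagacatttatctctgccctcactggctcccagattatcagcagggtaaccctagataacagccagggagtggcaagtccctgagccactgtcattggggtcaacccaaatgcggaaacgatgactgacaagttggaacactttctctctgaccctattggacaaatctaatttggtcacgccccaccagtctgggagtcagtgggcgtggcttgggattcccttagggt

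Complex I has the most nuclear members, 37, all of them tested. Their log2 fold changes were above 0 in 26 (70.3%, beside 49.1% of all genes tested), with a median of 0.07 and a range from -0.19 to 0.38, and 0 passed the adjusted threshold. In 6 of the 37 the 3 libraries labelled Ptprz1-/- lay above the 3 wild-type libraries in CPM, and in 1 below. Among all genes tested, 483 (3.55%) lay above and 508 (3.73%) below in this way. Over the 93 members there were 7 above and 3 below. This separation depended on the scaling. In the deposited FPKM, which is scaled to the plain sum of counts, 6 members lay above (4.71% of all genes) and 2 below (2.62%), and 4 and 2 of these did so in CPM as well. Those above in both were Ndufa6, Ndufa7, Ndufs8 and Cyc1, and those below in both were mt-Nd3 and Atp5s. Ndufb4, Ndufb9, Ndufv1 and Ndufa1 overlapped in FPKM, while Ndufa10 and Cox4i1 lay above in FPKM and overlapped in CPM.

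Ndufs8 (ENSMUSG00000059734, chr19:3908870-3912717), a core subunit that carries iron-sulfur clusters, was at 34.7, 36.6 and 28.9 CPM in the wild-type libraries and at 44.4, 43.8 and 42.2 CPM in those labelled Ptprz1-/-. The groups did not overlap, with 33.4 ± 4.01 against 43.4 ± 1.11 CPM (SD, n = 3 each), a log2 fold change of 0.38 (SE 0.13, unadjusted p = 0.0246, edgeR quasi-likelihood adjusted p = 1.00). Ndufv1, the core subunit where NADH binds, was at 71.2, 77.3 and 66.5 CPM against 82.7, 79.5 and 80.6 CPM, a log2 fold change of 0.18 (SE 0.11). The nearest libraries of the 2 genotypes thus lay closer together for Ndufv1 than for Ndufs8.

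Accessory subunits, which surround the catalytic core and are needed to assemble or hold it together, made up the rest. Ndufa6 (chr15:82350139-82354291) was at 56.4, 55.1 and 51.2 CPM against 70.7, 70.3 and 59.6 CPM, a log2 fold change of 0.30 (SE 0.12, unadjusted p = 0.0443, edgeR quasi-likelihood adjusted p = 1.00). Ndufa7 was at 80.5, 78.3 and 76.7 CPM against 92.2, 92.5 and 90.0 CPM. Ndufb9 was at 80.6, 69.6 and 72.4 CPM against 91.2, 82.0 and 82.4 CPM. In CPM the libraries labelled Ptprz1-/- were the higher ones without overlap in all 3 genes, and in the deposited FPKM in Ndufa6 and Ndufa7 but not Ndufb9. For Ndufa7 the levels were 78.5 ± 1.88 against 91.6 ± 1.33 CPM (SD, n = 3 each), with a log2 fold change of 0.22 (SE 0.10).

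Ndufb4, named here after its values were seen, was the sixth such gene of complex I, with a log2 fold change of 0.17 (SE 0.13) and 37.0% of its stretches shared with other transcripts. Ndufa1, an accessory subunit encoded on the X chromosome, stood the other way, at 45.2, 55.3 and 45.0 CPM in the wild-type libraries and at 40.4, 44.5 and 42.5 CPM in the others. The nearest libraries of the 2 groups were 0.505 CPM apart, less than the SD of either group. The most highly read gene named with complex I, Ndufa4, averaged an FPKM of 172 and overlapped between the genotypes at 81.1, 97.4 and 76.9 against 99.9, 73.5 and 76.3 CPM.

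Complexes II and III showed small differences. The 4 genes of complex II, which hold no mitochondrially encoded partner, had log2 fold changes between -0.11 and 0.08 (median -0.09), and Sdha, its flavoprotein, was at 195 ± 31.6 and 181 ± 9.57 CPM (SD, n = 3 each). The 9 nuclear genes of complex III had a median of 0.03. Of these, only Cyc1, cytochrome c1, did not overlap (11.1% above, beside 3.55% of all genes tested). It was at 82.4, 76.4 and 78.4 CPM in the wild-type libraries and at 93.8, 93.0 and 86.5 CPM in those labelled Ptprz1-/-, with a log2 fold change of 0.20 (SE 0.11, edgeR quasi-likelihood adjusted p = 1.00). Uqcr11, a small subunit with the highest mean FPKM of the complex (137), was at 81.7 ± 5.32 and 83.8 ± 6.74 CPM (SD, n = 3 each). The only mitochondrial subunit of complex III, mt-Cytb, had a log2 fold change of -0.07 (SE 0.26).

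Complex V had 17 nuclear members by gene name alone, with a median log2 fold change of -0.03. Atp5b, the catalytic beta subunit, was at 795, 952 and 705 CPM in the wild-type libraries and at 890, 745 and 676 CPM in the others, so the genotypes overlapped. Only Atp5s, encoding coupling factor B and named after its values were seen, did not overlap (5.88% below, beside 3.73% of all genes tested). It was at 5.44, 5.39 and 5.80 CPM against 4.96, 4.12 and 4.36 CPM, with a log2 fold change of -0.31 (SE 0.22).

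**Figure D4:**
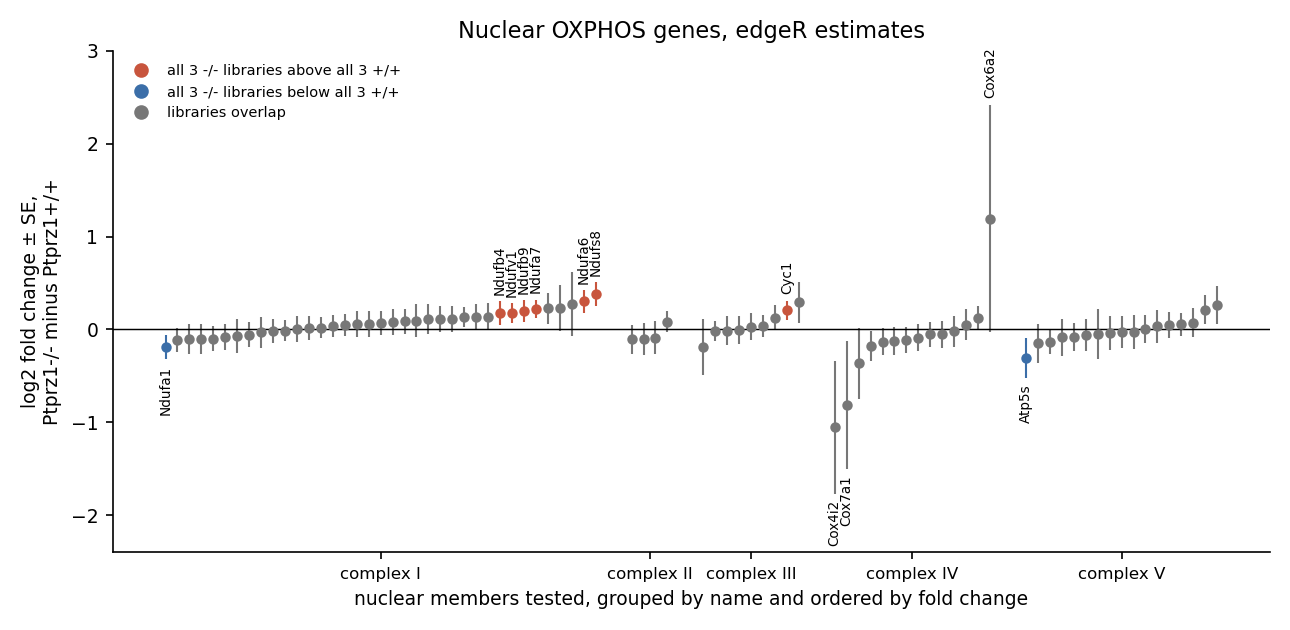
Log2 fold change (Ptprz1-/- minus Ptprz1+/+) with its standard error (SE) for the 81 nuclear members tested, grouped by complex as named and ordered by size within each. Red and blue mark genes whose libraries do not overlap between genotypes in CPM (7 above, 2 below). These are 8.64% and 2.47% of the nuclear members tested, beside 3.55% and 3.73% of all genes tested. The widest errors are those of Cox4i2, Cox7a1 and Cox6a2 in complex IV.

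Complex IV contains pairs of isoforms, and the common form was the more highly read of each pair. By mean FPKM, Cox4i1 was at 282 and Cox4i2 at 12.1, Cox6a1 at 464 and Cox6a2 at 2.85, Cox6b1 at 256 and Cox6b2 at 5.95, Cox7a2 at 66.8 and Cox7a1 at 4.60, and Cox8a at 436 and Cox8b at 0.370. Cox6a2, Cox7a1 and Cox8b are known as heart and skeletal muscle forms and Cox6b2 as a form of the testis. The 8 striated muscle markers examined, of which 7 are in the table, summed to 4.23 to 13.8 CPM over the 6 libraries. The 14 nuclear genes of the complex that were tested had a median log2 fold change of -0.10. Of them, 11 were below 0, beside 6924 of the 13609 genes tested. Members share the same libraries, so neither this count nor that of complex I is a test of direction.

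The common forms varied little. Cox6a1 was at 298, 298 and 285 CPM in the wild-type libraries and at 291, 302 and 256 CPM in those labelled Ptprz1-/-, a log2 fold change of -0.05 (SE 0.13). Those of Cox4i1, Cox6b1, Cox7a2 and Cox8a were between -0.18 and 0.12. In each of these 5 genes the genotypes overlapped in CPM. In the deposited FPKM, Cox4i1 stood at 254, 267 and 284 in the wild-type libraries and at 300, 295 and 294 in the others, without overlap.

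Of the restricted forms, Cox4i2 (chr2:152754173-152765037), an isoform that is known from lung and responds to low oxygen, was at 9.79, 22.4 and 3.79 CPM in the wild-type libraries and at 6.02, 8.79 and 2.51 CPM in those labelled Ptprz1-/-. Replicate 2 was the highest and replicate 3 the lowest of each genotype, and the log2 fold change of -1.06 had an SE of 0.71 (edgeR quasi-likelihood adjusted p = 1.00). It was between -1.49 and -0.23 when libraries were left out singly, and -0.23 was the value without wild-type replicate 2.

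Cox6a2 had 46, 0 and 11 reads in the wild-type libraries and 49, 58 and 14 reads in those labelled Ptprz1-/-. The 0 in wild-type replicate 2 allows up to 0.165 CPM at its depth, and the log2 fold change of 1.19 had an SE of 1.23. It was 0.61 without that library and 2.95 without wild-type replicate 1, and 2.64 with limma voom. Cox7a1 had 18, 75 and 18 reads against 32, 13 and 11 reads, with a log2 fold change of -0.81 (SE 0.69) that turned to 0.11 without wild-type replicate 2. Cox6b2 was at 3.92 ± 1.61 and 3.04 ± 0.317 CPM (SD, n = 3 each). All 3 overlapped between the genotypes.

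**Figure D5:**
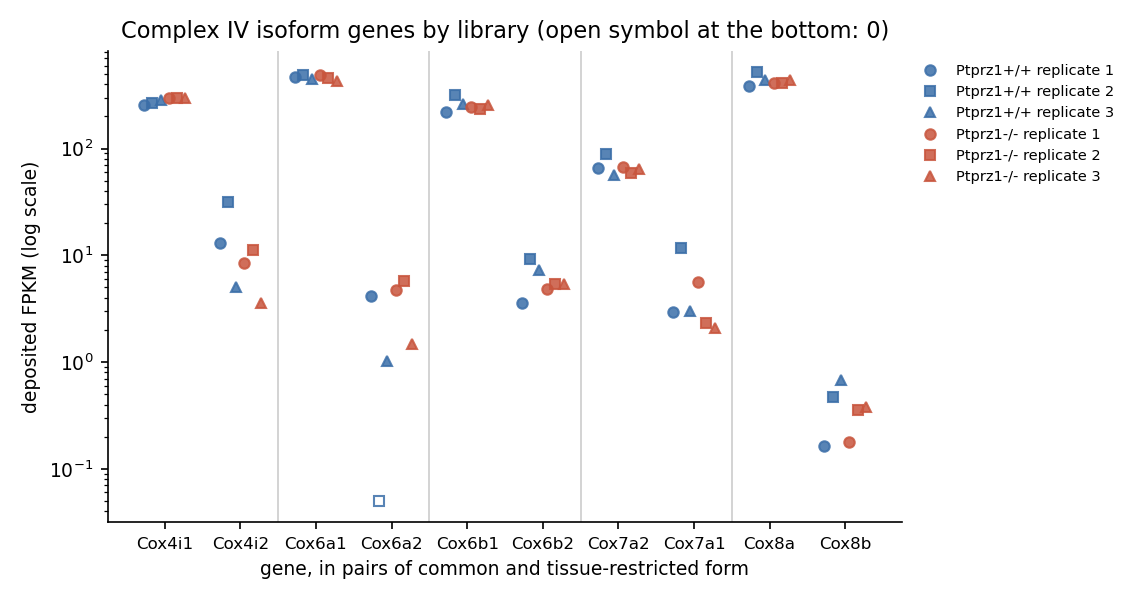
Deposited FPKM (log axis) of the 10 complex IV isoform genes in the table, in pairs, 1 symbol per library, the open symbol at the bottom standing for the value of 0 of Cox6a2 in wild-type replicate 2. The common forms have mean levels between 66.8 and 464 and the restricted forms between 0.370 and 12.1, and for Cox4i1 the libraries labelled Ptprz1-/- lie at 294 to 300 against 254 to 284.

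Other genes of the pathway were taken from lists. In none of the 6 lists did a gene pass the adjusted threshold with edgeR or DESeq2. In 8 of their genes the genotypes did not overlap in CPM. By list, the share of genes tested was between 0% and 12.5% above and between 0% and 5.56% below, from at most 2 genes each. Among all genes tested these shares were 3.55% and 3.73%. Of the 8 genes, 5, namely Ttc19, Coq5, Tfam, Esrra and Nnt, were without overlap in the deposited FPKM too. Cox11, Trmt10c and Ogdh overlapped there, while Coa6 and Cox7a2l lay above there and overlapped in CPM. Assembly factors, of which 46 of 54 listed were in the table and 44 tested, had a median log2 fold change of -0.00159, with 1 gene above and 1 below without overlap in CPM (2.27% each, beside the 3.55% and 3.73% of all genes tested). The former was Cox11, a copper chaperone of complex IV named after its values were seen, at 5.38, 4.89 and 5.43 CPM against 7.88, 5.56 and 5.88 CPM. The latter was Ttc19, which serves the maturation of complex III, at 33.3, 32.0 and 31.8 CPM against 27.8, 30.1 and 25.4 CPM, whereas Uqcc2, another assembly factor of complex III, overlapped at 66.3, 51.8 and 45.6 against 69.7, 68.2 and 60.8 CPM.

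The 10 genes tested for coenzyme Q and cytochrome c, the mobile carriers between the complexes, had a median of 0.10. Coq5, a methyltransferase of coenzyme Q synthesis, was at 23.3, 15.4 and 21.9 CPM in the wild-type libraries and at 27.0, 29.6 and 26.3 CPM in those labelled Ptprz1-/-. These did not overlap, with a log2 fold change of 0.45 (SE 0.19, edgeR quasi-likelihood adjusted p = 1.00). Coq5 was the only gene of the 10 without overlap in CPM (10.0% above, beside 3.55% of all genes tested). Pdss2, which makes the side chain of coenzyme Q, overlapped, with a log2 fold change of 0.28 (SE 0.26).

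The 25 genes tested that copy, transcribe and process the mitochondrial genome had a median of 0.06, with 2 above (8.00%, beside 3.55% of all genes tested) and 0 below without overlap in CPM. Tfam, which packages mitochondrial DNA and starts its transcription, was at 33.0, 23.1 and 28.5 CPM against 34.0, 35.1 and 36.5 CPM, a log2 fold change of 0.32 (SE 0.16). Trmt10c, a subunit of the enzyme that cuts tRNAs from mitochondrial transcripts, was at 17.2, 12.3 and 14.8 CPM against 18.4, 17.8 and 18.6 CPM, a log2 fold change of 0.31 (SE 0.17).

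Of 12 regulators of mitochondrial biogenesis, only Esrra, an orphan nuclear receptor, did not overlap (8.33% above, beside 3.55% of all genes tested). It was at 33.3 ± 1.54 against 36.7 ± 1.89 CPM (SD, n = 3 each). Ppargc1a, the coactivator PGC-1 alpha, was at 1.39, 7.86 and 3.97 CPM against 3.60, 2.06 and 4.10 CPM, and its relative Ppargc1b at 2.42, 5.72 and 3.85 against 5.27, 4.12 and 7.13 CPM. The list's median was -0.05.

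Among 18 genes of the citric acid cycle and pyruvate dehydrogenase, which supply the electrons, the median was -0.01. Only Ogdh, of the oxoglutarate dehydrogenase complex, did not overlap (5.56% below, beside 3.73% of all genes tested). It lay lower, at 107, 145 and 118 CPM against 97.0, 103 and 104 CPM. Idh3b, of isocitrate dehydrogenase, overlapped, with a log2 fold change of 0.15 (SE 0.12). Of 8 genes tested for exchange across the mitochondrial membranes, only Nnt did not overlap (12.5% above, beside 3.55% of all genes tested). Nnt is the transhydrogenase that makes NADPH from the proton gradient. It was at 52.6, 62.9 and 49.5 CPM in the wild-type libraries and at 63.8, 71.5 and 63.5 CPM in those labelled Ptprz1-/-, a log2 fold change of 0.27 (SE 0.13). Ucp2, an inner membrane carrier, was at 112, 429 and 97.0 CPM against 161, 77.9 and 87.8 CPM, and its log2 fold change of -0.96 (SE 0.63) turned to 0.06 without wild-type replicate 2.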

How the data were processed

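The authors deposited, for 21999 genes and 6 libraries, the count of reads per gene, not normalized, and FPKM computed by the authors from these counts; both were used. Columns of the authors' own comparison (mean signal, log2 fold change, p-values) and their lists of called genes were not used. The submitters' processing notes name STAR, HTSeq, TopHat, DESeq2 and edgeR and the builds GRCm38 and mm10. Counts that passed filterByExpr were scaled by TMM and tested for genotype alone by the quasi-likelihood method of edgeR 4.0.16 (R 4.3.3; glmQLFit, glmQLFTest), all genes tested entering the Benjamini-Hochberg adjustment at a threshold of 0.05. CPM are on TMM-scaled library sizes. Alternatives were DESeq2 1.42.0, limma 3.58.1 voom, upper-quartile scaling, library sizes from nuclear genes, other filters, left-out libraries and a replicate block. All 96 members were found by identifier in GENCODE M21, overlapping their deposited position.

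The text names all mitochondrial members, the complex IV isoforms, the 8 nuclear members of smallest p-value, the member of highest FPKM of each complex, and of each pathway list the 2 genes of smallest p-value, with Nnt, Ppargc1a and Tfam. Atp5l, Atp5s, Coa6, Cox11, Cox7a2l, Gm28438, Ndufa10 and Ndufb4 were added after their values were seen. The members, lists and tests were chosen with earlier results of these data known, and the sharing of stretches was examined after the data. The functions were checked on simulated counts with changes larger than most reported here, which does not measure their power for smaller ones. p-values measure the spread between isolations.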

Additional observations from a re-analysis of the deposited data

Results flagged for a closer look

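One value lies in data outside the members. Gm28438, the chromosome 1 copy of mt-Nd3, was at a mean of 5.32 CPM in the libraries labelled Ptprz1-/- (SD 1.48, n = 3), above the 2.98 CPM (SD 0.776, n = 3) of the Ptprz1+/+ libraries, with no overlap. It had an adjusted p of 1.00 in both edgeR's quasi-likelihood test and DESeq2's Wald test. Groups of 3 libraries were not searched for single outlying libraries.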

How the results depend on the processing

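DESeq2's size factors and Wald test called 30 genes and 1 member, mt-Nd3 (log2 fold change -1.22, adjusted p = 0.041), and the other alternatives called 0. The medians and the shares of counts moved by less than the spread between libraries under every alternative, including members with under 10% shared stretches, an alternative chosen after seeing the data (medians -0.01 nuclear and -0.02 mitochondrial). Of 359 values of the 45 named genes under alternatives other than a left-out library, 353 kept their direction and side of the threshold. The log2 fold change of mt-Nd4 turned to 0.030 with limma voom and to 0.032 with the replicate block. Without both libraries numbered 3, mt-Nd4 was at 0.21, mt-Nd5 at 0.079 and mt-Cytb at 0.028. The cause was not tested.

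With 1 library left out, 29 of the 45 kept their sign in all 6 fits. The 16 that did not had log2 fold changes from -0.20 to 0.038 (Atp5b), -0.10 to 0.012 (Cox6a1), -1.37 to 0.11 (Cox7a1), -0.18 to 0.074 (Ndufa4), -0.86 to 0.27 (Ppargc1a), -0.21 to 0.014 (Sdha), -1.35 to 0.064 (Ucp2), -0.0065 to 0.10 (Uqcr11), -0.060 to 0.48 (mt-Co1), -0.049 to 0.37 (mt-Co3), -0.20 to 0.15 (mt-Cytb), -0.087 to 0.48 (mt-Nd1), -0.17 to 0.51 (mt-Nd2), -0.22 to 0.35 (mt-Nd4), -0.13 to 0.28 (mt-Nd4l) and -0.17 to 0.21 (mt-Nd5). The count of genes at an unadjusted p under 0.05 was between 312 and 676.

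Libraries with the same replicate number were not shown to be pairs: their deviations from the group means correlated at 0.446, -0.0607 and 0.523 for numbers 1, 2 and 3. Between libraries of different number and genotype the correlations were from -0.568 to 0.0923, so numbers 1 and 3 had the highest values. With the replicate block, 690 genes and 4 members had an unadjusted p under 0.05, and 0 an adjusted one. mt-Nd4l and mt-Nd3 rest on 17 to 109 reads per library.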
